A study of Mus musculus with 12 samples.

Results

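The 8 genes Tcf7, Lef1, Il7r, Ccr7, S1pr1, Klf2, Slamf6 and Id3, known for their parts in T-cell memory and homing, were examined in T cells of mouse tumours. They were matched by symbol to the gene names of the deposited matrices, and all 8 of 8 were found among 32285 genes. The series concerns melanoma rejection and uses tumours grown from SCC35 lines. Lines 15 and 18 served as the control group, and lines 19 and 24 are labelled as a knockout (KO) of Mif, which encodes the cytokine macrophage migration inhibitory factor. The lines are named as controls and knockouts with no other genotype, and the labels used here give neither the hosts' strain and age nor whether a line is a clone. Hashtag antibodies marked the tumours, and a deposited sheet tied every hashtag to its line, to day 0, 6, 10 or 16 and to a letter. A tumour is here 1 hashtag. Nothing says that each came from a separate animal, so p-values concern hashtags and not animals.

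Naive and memory T cells are set apart from effector cells by a small group of transcription factors and surface receptors. Tcf7 and Lef1 encode related DNA-binding partners of beta-catenin, and Tcf7 is known for marking CD8 T cells in tumours that keep the ability to renew. Il7r encodes the receptor chain for the survival cytokine interleukin 7, Ccr7 the chemokine receptor that leads cells into lymph nodes, and S1pr1 the lipid receptor that leads them out. Klf2 is a transcription factor of S1pr1 and of quiescence, Id3 restrains E proteins, and Slamf6 is a surface receptor often found with Tcf7.

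In GENCODE M21 (GRCm38), whose identifiers match those of the files, Tcf7 (ENSMUSG00000000782) lies on the minus strand of chromosome 11 from 52252371 to 52283014. Ccr7 (ENSMUSG00000037944) is on the minus strand of the same chromosome from 99144196 to 99155077. Lef1 (ENSMUSG00000027985) is on the plus strand of chromosome 3 from 131110471 to 131224356, and S1pr1 (ENSMUSG00000045092) on its minus strand from 115710433 to 115715072. Il7r (ENSMUSG00000003882) is on the minus strand of chromosome 15 from 9505788 to 9530176, and Klf2 (ENSMUSG00000055148) on the plus strand of chromosome 8 from 72319033 to 72321656. Slamf6 (ENSMUSG00000015314) is on the plus strand of chromosome 1 from 171917515 to 171953170, and Id3 (ENSMUSG00000007872) on the plus strand of chromosome 4 from 136143497 to 136145755.

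The data were counts of unique molecular identifiers (UMIs), which count captured RNA molecules, from 6 libraries. Of these, 4 held 1 line each and 2 held several. The libraries held 151385933 to 239699029 gene UMIs, and the median passing cell had 3072 to 9121.5 UMIs. Pairs of libraries shared 570 to 1503 cell barcodes, and all values were kept within a library. In cells outside the immune gates Mif was at 1706 to 2702 CPM (UMIs per 1000000 UMIs of the sum) in control tumours of days 6 to 16. Control hashtags of day 0 had 2685 to 3110 CPM, and every KO hashtag lay below all of these. KO line 19 had 75.6 to 331 CPM and KO line 24 had 414 to 829.5 CPM on days 6 to 16, and on day 0 they had 45.7 to 47.4 and 231 to 235 CPM. T cells were gated on raw UMIs of Cd3d, Cd3e and Cd3g and divided by UMIs of Cd8a or Cd8b1, Cd4 and Foxp3. Days 6 to 16 of the 4 lines gave 1264 CD8 T cells, 684 conventional CD4 T cells and 201 regulatory T cells. A further 2231 T cells carried either none of these UMIs or a conflicting combination and were not placed. All 7 markers of T cells were detected in each class, while the Cd3, Cd8, Cd4 and Foxp3 levels follow from the gate and check nothing. The class called conventional CD4 had 1028 CPM of regulatory T-cell markers, against 3141 CPM in regulatory T cells. Most of that sum came from Tnfrsf18 (492 CPM) and Ctla4 (327 CPM), which activated T cells also express. CD8 T cells had 461 CPM of the list. Il2ra (105 against 38.4 CPM) and Ikzf4 (7.39 against 5.48 CPM) were higher in conventional CD4 than in CD8 T cells, and Ikzf2 was lower (96.6 against 131 CPM). RNA of other cells was present: collagen and other line-cell markers summed to 729 CPM in CD8 T cells and to 1244 CPM in conventional CD4 T cells, and macrophage markers to 94.1 and 115 CPM.

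All 8 genes were sparse in these shallow cells. The median cell had 1900 UMIs among CD8, 1554 among conventional CD4 and 1626 among regulatory T cells. No UMI of any of the 8 genes was seen in 601 CD8 T cells (47.5%), 427 conventional CD4 T cells (62.4%) and 86 regulatory T cells (42.8%). In bulk sums such as those used here, fewer positive cells and less RNA per cell cannot be told apart.

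Tcf7 and Lef1, the transcription factors, were far higher in CD8 T cells than in macrophages. Tcf7 stood at 57.7 CPM in CD8, 19.3 CPM in conventional CD4 and 5.54 CPM in regulatory T cells, against 1.48 CPM in macrophages (median 2721 UMIs). The remaining, mostly non-immune cells had 5.67 CPM, above the regulatory T-cell value, which rests on 3 UMIs in 201 cells. Natural killer cells, gated on Ncr1 and Klrb1c, held 60.5 CPM of Tcf7, close to the CD8 level. With each cell thinned to 1000 UMIs, 5.73% of 1169 CD8 T cells had a Tcf7 UMI (95% exact binomial interval 4.47 to 7.22), against 1.98% of conventional CD4 T cells and 0.11% of macrophages. Without thinning 11.7% of CD8 T cells did. Lef1 stood at 29.4 CPM in CD8, 22.1 CPM in regulatory, 14.8 CPM in conventional CD4 T cells, 8.38 CPM in natural killer cells and 0.20 CPM in macrophages. Regulatory T cells, lowest of the 3 classes for Tcf7, were thus above conventional CD4 T cells for Lef1, on 12 and 26 UMIs.

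Among the receptors, summed over both groups, Ccr7 was highest in CD8 T cells and Il7r in regulatory T cells. KO tumours gave 1053 of the 1264 CD8 T cells, and over control cells alone Ccr7 was at 136 CPM in CD8 and 207 CPM in conventional CD4 T cells. Ccr7 stood at 209 CPM in CD8, 110 CPM in conventional CD4, 83.0 CPM in regulatory T cells and 8.43 CPM in macrophages. A Ccr7 UMI was found in 13.4% of thinned CD8 T cells (19.2% unthinned) and 0.78% of macrophages. Il7r stood at 137 CPM in regulatory T cells, 60.9 CPM in CD8 and 47.2 CPM in conventional CD4 T cells, over 31.5 CPM in macrophages. The value of regulatory T cells rests on 74 UMIs in 201 cells and was not tested in the main comparisons of classes. S1pr1 was low throughout, at 22.2 CPM in CD8, 13.1 CPM in conventional CD4 and 24.0 CPM in regulatory T cells, and no S1pr1 UMI was counted in 263 natural killer cells. Slamf6 stood at 13.6 CPM in CD8, 25.01 CPM in conventional CD4 and 29.5 CPM in regulatory T cells.

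Summed over both groups, Klf2 and Id3 were no higher in CD8 T cells than in macrophages or the remaining cells. Klf2 stood at 205 CPM in CD8 T cells, 259 CPM in macrophages and 460 CPM in the remaining, mostly non-immune cells. After thinning, 13.2% of CD8 T cells, 16.1% of macrophages and 28.9% of remaining cells (median 5613 UMIs) had a Klf2 UMI. Id3 stood at 26.0, 36.8 and 54.4 CPM in the same classes. The order against macrophages differed by group, in sums over tumours with at least 10 cells of the class. In control tumours Klf2 was at 290 CPM in CD8 T cells and 282 CPM in macrophages, and Id3 at 35.3 and 32.5 CPM. In KO tumours Klf2 was at 185 and 214 CPM, and Id3 at 22.5 and 45.1 CPM. The part of free RNA in the Klf2 and Id3 counts of T cells was not tested, and their values below are read with that limit.

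**Figure D1:**
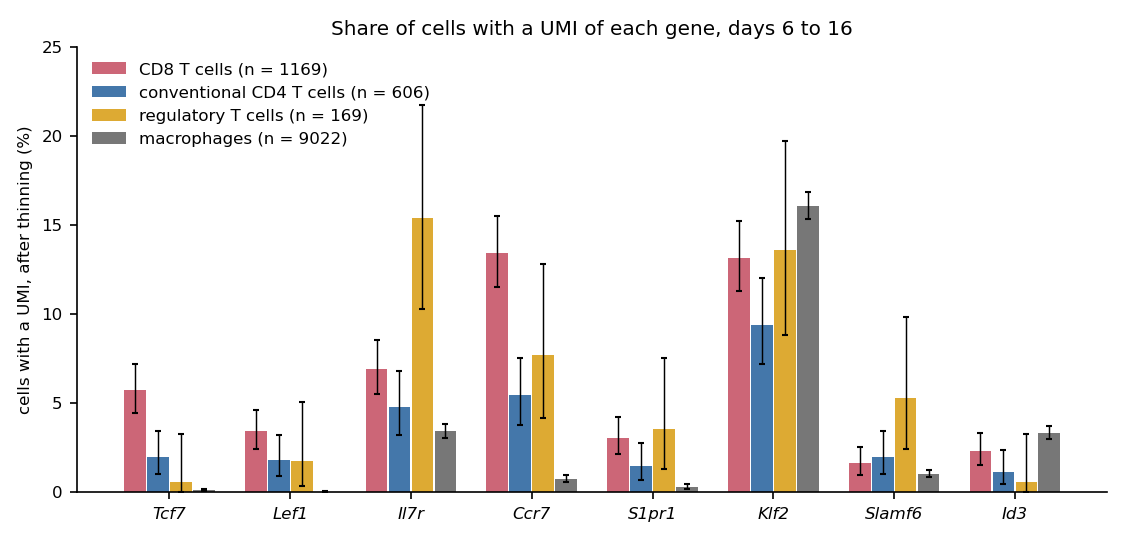
Share of cells with at least 1 UMI of each gene after thinning to 1000 UMIs per cell (y axis, %), by class over days 6 to 16. Bars are shares of all cells of the class and error bars are 95% exact binomial intervals, which cover counting error only. Tcf7 reaches 5.73% in CD8 T cells and 0.11% in macrophages, whereas Klf2 reaches 13.2% and 16.1%.

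Sums per tumour were compared between each T-cell class and macrophages of the same tumours with edgeR's quasi-likelihood test, with Benjamini-Hochberg adjustment over all genes tested. In CD8 T cells, 5 of the 7 genes tested were higher (Lef1, Tcf7, Ccr7, S1pr1 and Il7r) and 2 lower (Klf2 and Id3). Of all genes 45.3% were called, 18.4% higher and 26.8% lower. On the log2 scale the difference was 5.90 for Lef1 (SE 0.40, edgeR adjusted p 2.94e-18), 4.95 for Tcf7 (SE 0.30, edgeR adjusted p 1.51e-20) and 3.94 for Ccr7 (SE 0.32, edgeR adjusted p 7.00e-16). S1pr1 was higher by 2.49 and Il7r by 1.05 on the log2 scale, while Id3 was at -0.76 (edgeR adjusted p 0.013) and Klf2 at -0.27 (edgeR adjusted p 0.038). Without line 24 the Id3 difference was 0.012 and no longer past the threshold, and Klf2 lost its call in 8 of 15 alternatives. In conventional CD4 T cells Lef1 (4.87), Ccr7 (3.22), Tcf7 (2.85) and Slamf6 (0.96, edgeR adjusted p 0.033) were higher, Klf2 (-0.59) and Id3 (-1.43) were lower, and Il7r did not pass (0.42, edgeR adjusted p 0.28). Of all genes 33.9% were called there, 14.5% higher and 19.3% lower. Slamf6 lost its call in 7 of 14 alternatives.

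Tcf7 and Il7r were higher in CD8 than in conventional CD4 T cells of the same tumour. This comparison used the 17 tumours with at least 10 cells of both classes, 15 of them KO and 2 control, with tumour as a term. Tcf7 ran from 0 through a median of 64.2 to 277 CPM in CD8 T cells and from 0 through 15.2 to 60.5 CPM in conventional CD4 T cells, and was higher in CD8 in 14 of 17 tumours. The ranges overlapped, with 1 tumour at 0 in CD8 and 6 at 0 in conventional CD4 T cells. The fitted difference was 2.17 on the log2 scale (SE 0.38, edgeR adjusted p 7.83e-05). In that comparison 2 of the 5 genes tested passed, both higher in CD8, against 11.4% of the 3045 genes tested in either direction and 5.71% higher.

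Il7r ran from 27.0 through a median of 74.6 to 189 CPM in CD8 and from 0 through 26.9 to 127 CPM in conventional CD4 T cells. It was higher in CD8 in 15 of 17 tumours, by 1.04 on the log2 scale (SE 0.27, edgeR adjusted p 0.0061). The 2 control tumours had 125 and 81.6 CPM in CD8 and 127 and 44.6 CPM in conventional CD4 T cells. Over all control tumours with 10 cells of a class, which are not the same tumours, the mean was 67.7 CPM (n = 7) in CD8 and 111 CPM (n = 3) in conventional CD4 T cells. The call was lost without line 19 (0.77, edgeR adjusted p 0.33), in the mixed libraries alone (1.35, edgeR adjusted p 0.11) and with at least 5 cells per sum (0.75, edgeR adjusted p 0.098).

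Ccr7 did not pass in this comparison. It ran from 0 through a median of 205 to 873 CPM in CD8 and from 9.47 through 86.2 to 605 CPM in conventional CD4 T cells, and was higher in CD8 in 12 of 17 tumours. CD8 against conventional CD4 gave 1.18 on the log2 scale (SE 0.44, edgeR adjusted p 0.087), and it passed in 7 of 16 alternatives, such as 2.20 with at least 20 cells per sum and 3.62 in the mixed libraries alone. Lef1 was at 1.16 (SE 0.53, edgeR adjusted p 0.19) and Klf2 at 0.40 (SE 0.21, edgeR adjusted p 0.29). S1pr1, Slamf6 and Id3 had too few counts to be tested. S1pr1 was higher in CD8 in 14 and Id3 in 11 of the 17 tumours, while Slamf6 was higher in conventional CD4 T cells in 10 of them.

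**Figure D2:**
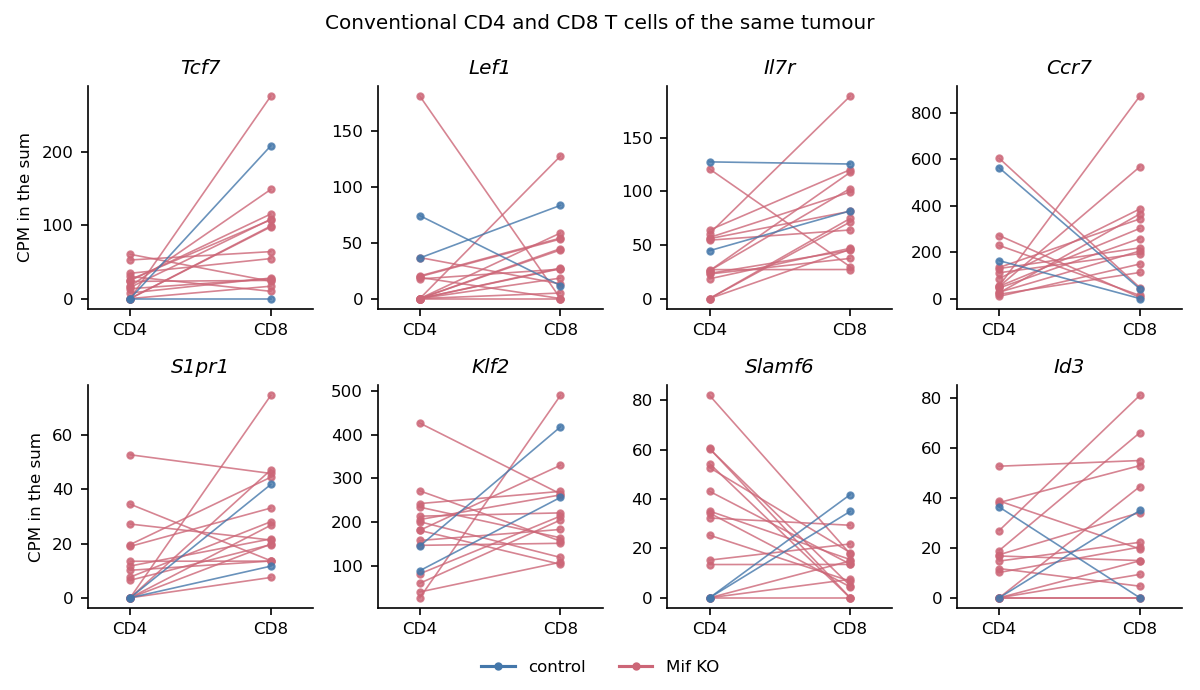
Level of each gene (y axis, CPM of the summed cells) in conventional CD4 and CD8 T cells, with a line for each of the 17 tumours that had at least 10 cells of both, coloured by group. Tcf7 lies higher in CD8 in 14 of 17 tumours and Il7r in 15 of 17, and Ccr7 lines cross.

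Other genes of the same pathways also differed between the 2 classes. Of 16 companions of the memory programme, 8 were tested and 3 were higher in CD8 T cells: Bcl2, a survival factor (log2 fold change 1.29), the costimulatory receptor Cd27 (1.35) and the chromatin organiser Satb1 (0.65), with none lower. The list's median was 0.42, against 0.01 over all genes, of which 11.4% were called and 5.71% higher. Of 17 effector genes 12 were tested, with 6 higher (Ccl5, Gzmk, Gzma, Prf1, Gzmb and Nkg7) and 2 lower (Ifng and Id2) and a median of 0.65. Of 11 genes of interleukin 7 receptor signalling, all tested, Bcl2 was higher and Il2ra (-1.06) and Cish (-1.07) lower. Of 13 genes of homing and egress 6 were tested, with the integrin gene Itga4 higher (0.99) and Itgal lower (-0.55).

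CD8 T cells with a Tcf7 UMI had more Ccr7 and less Gzmb, Ifng, Ccl5 and Nkg7 than those without, in 3 tumours. Only 3 tumours, all of KO lines, had at least 10 cells on each side. In line 19, day 16, tumour B, Ccr7 was at 861 CPM with Tcf7 and 191 CPM without. In line 24, day 10, tumour C, the values were 581 and 247 CPM, and in line 24, day 16, tumour B, they were 521 and 170 CPM. The sides did not overlap. Ccr7 was higher by 1.62 on the log2 scale (SE 0.28, edgeR adjusted p 1.75e-06). It was 1 of 3 genes higher and 15 lower among 1527 tested (1.18% called, 0.196% higher), and Il7r (1.27, edgeR adjusted p 0.45) and Klf2 (0.25, edgeR adjusted p 0.94) did not pass. The other genes higher were Xcl1, a chemokine gene, and Rps29. Xcl1 was higher in 2 of the 3 tumours (2466 against 239 CPM, and 951 against 288 CPM) and lower in the other (50.5 against 178 CPM). Its edgeR adjusted p was still 4.30e-09. The small p-values of this fit thus do not measure the spread between these 3 tumours.

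The genes lower in CD8 T cells with a Tcf7 UMI were led by Gzmb, which encodes granzyme B. It was at 69.8, 12.6 and 113 CPM in these cells and at 315, 322 and 1308 CPM in the others of the same 3 tumours. With against without Tcf7, it stood at -3.40 on the log2 scale (SE 0.40, edgeR adjusted p 9.46e-15). Of 17 effector genes 7 were tested and 4 were lower (Gzmb, Ifng, Ccl5 and Nkg7), with none higher and a median of -1.18, against -0.02 over all genes. Rgs1, a regulator of receptor signalling linked to retention in tissue, was also lower (-2.71), as were Ifng (-2.25), the antigen presentation gene Cd74 (-1.89), the interferon response gene Isg15 (-1.47), Ccl5 (-1.38) and Nkg7 (-1.18). The other genes called lower were Hist1h2ae (-1.33), Cst3 (-1.06), AY036118 (-0.73), S100a4 (-0.71), S100a6 (-0.67), Tmsb4x (-0.57), Vim (-0.49) and Gm42418 (-0.30). None of the 6 tested memory companions passed.

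The same comparison with at least 5 cells on each side, chosen after seeing the data, took in 12 tumours. The 3 tumours above are among them, so it is no independent check. All but tumour C of line 18, day 16, were of KO lines. Ccr7 was higher with Tcf7 in 9 of 12 tumours, at 473 ± 199 CPM (mean ± SD, n = 12) with Tcf7 and 232 ± 129 CPM without. It was lower in tumour C of line 19 on days 6 and 10 and in tumour C of line 24, day 6. The fitted difference of Ccr7 was 1.15 on the log2 scale (SE 0.25, edgeR adjusted p 0.036), against 0.525% of genes called and 0.15% higher. Gzmb was higher with Tcf7 in only 2 of 12 tumours (-1.91, edgeR adjusted p 0.0078). Of the genes called in 3 tumours, Ccr7, Rps29, Gzmb, Ccl5 and Rgs1 were called here too. The others were not, among them Ifng, Xcl1, Cd74, Isg15 and Nkg7 (-0.74, edgeR adjusted p 0.051). In the comparison of 3 tumours DESeq2 called 3 genes. Leaving out line 19 there left 0 genes called and Ccr7 at 1.41 (edgeR adjusted p 0.72), and the fit without line 24 could not be made.

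Cells with a Tcf7 UMI were deeper, with a median of 2245 UMIs against 1820.5. Over all CD8 T cells, 53.4% of 148 cells with and 14.6% of 1116 cells without Tcf7 had a Ccr7 UMI. After thinning both genes, the shares were 37.3% of 67 cells with and 132 of 1102 cells without Tcf7. Ccr7 is also a gene of mature dendritic cells, and their markers Fscn1 or Ccl22 were found in a few cells of the gate. Fscn1 is no marker of these cells alone here, at 107 CPM in the remaining, mostly non-immune cells and 26.5 CPM in CD8 T cells. Leaving out cells with a UMI of either gave 597 CPM of Ccr7 with and 149 CPM without Tcf7, against 492 and 159 CPM before. A cell can hold such RNA and show neither marker, and its part in the result was not tested.

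**Figure D3:**
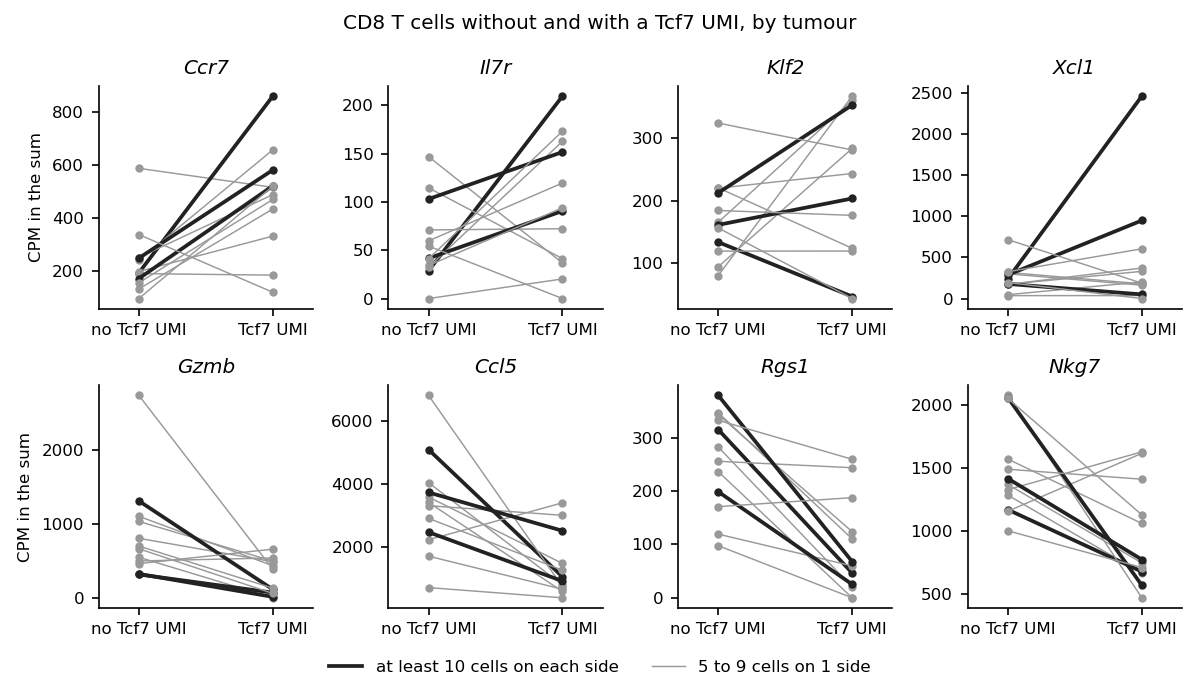
Level of 8 genes (y axis, CPM of the summed cells) in CD8 T cells without and with a Tcf7 UMI, with a line per tumour. Dark lines are the 3 tumours with at least 10 cells on each side and grey lines the others of the 12 tumours with at least 5. Ccr7 rises in all dark lines, and Gzmb, Ccl5, Rgs1 and Nkg7 fall.

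Tumours rich in Ccr7 were also rich in Tcf7 and Lef1 among their CD8 T cells. Over the 19 tumours with at least 20 CD8 T cells, Spearman's rho was 0.88 for Lef1 and Ccr7, 0.81 for Tcf7 and Ccr7 and 0.67 for Tcf7 and Lef1 (Pearson's r of log2 values 0.52, 0.71 and 0.42). These are descriptions: the tumours share lines, libraries and depth, and low counts give ties at 0. Within line 19 rho was 0.96 for Lef1 and Ccr7 and 0.79 for Tcf7 and Ccr7 (n = 7), and within line 24 it was 0.89 and 0.96 (n = 7). Leaving out the 2 tumours farthest from the median of Ccr7 moved Pearson's r to 0.85 for Lef1 and to 0.45 for Tcf7.

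Klf2 did not go with them. Its rho was 0.04 with Tcf7, -0.23 with Ccr7 and -0.25 with Lef1, and with Ccr7 it was -0.93 within line 19 and 0.61 within line 24. Slamf6 was at -0.25 with Tcf7. By Spearman's rho over these 19 tumours, Ccr7 (0.81), Eef1b2 (0.77) and Fam241a (0.73) were most like Tcf7. For Ccr7, the nearest were Lef1 among the 8 genes and Rps3 (0.81), Tcf7 (0.81) and Rpl15 (0.79) among genes above the level set for that ranking. The ranking over tumours with at least 50 CD8 T cells left only 5 tumours and gave ties.

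**Figure D4:**
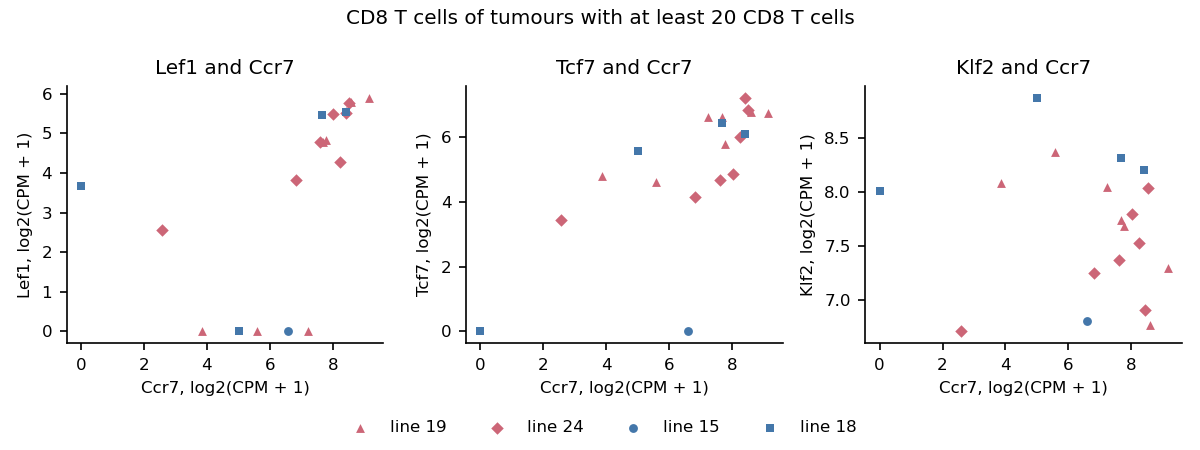
Lef1, Tcf7 and Klf2 (y axes) against Ccr7 (x axes) in CD8 T cells, as log2(CPM + 1), with a point for each of the 19 tumours with at least 20 CD8 T cells, by line (blue for control, red for KO). Lef1 and Tcf7 are high where Ccr7 is high, with rho of 0.88 and 0.81, and Klf2 shows no such order.

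The comparison of KO with control tumours, the one the labels name, called none of the 8 genes in CD8 T cells. It used 7 control and 17 KO tumours with at least 10 CD8 T cells, and day as a term. Only Tcf7, Ccr7 and Klf2 had counts enough to be tested, and 0 of these 3 passed, against 3.29% of 1489 genes tested. Library and line cannot be told apart in the single-line libraries, and the 4 lines are few: with 1 sum per line no gene of the table was called.

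Tcf7 in CD8 T cells ran from 0 through a median of 67.9 to 209 CPM in control and from 0 through 64.2 to 277 CPM in KO tumours. The groups overlapped fully. Control tumours below the minimum, left out of the fit, held 27 Tcf7 UMIs in 57 CD8 T cells, against 20 in the 154 cells of those used. Over all CD8 T cells, without thinning, 16.6% had a Tcf7 UMI in control and 10.7% in KO tumours. KO against control gave 0.14 on the log2 scale (SE 0.74, edgeR adjusted p 0.94), and it turned to -0.63 without line 19 and to 0.93 without line 24. Within the KO group Tcf7 had a mean of 97.8 CPM ± 74.8 (SD, n = 9) in line 19 and 51.1 CPM ± 54.3 (SD, n = 8) in line 24. The 3 highest tumours were 1 of line 19, 1 of line 15 and 1 of line 18, each with 14 cells or fewer.

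Ccr7 in CD8 T cells ran from 0 through a median of 54.2 to 340 CPM in control and from 4.94 through 219 to 873 CPM in KO tumours. Most KO tumours lay above the control median, but the lowest KO tumour lay below 6 of the 7 control tumours. The fitted difference was 1.25 on the log2 scale (SE 0.67, edgeR adjusted p 0.34). It was positive in all 17 alternatives, from 0.65 to 1.84, and past the threshold in 1, without a filter on low counts (1.5, edgeR adjusted p 5.17e-05), where 0.712% of genes were called and 0.612% higher. In the mixed libraries alone it was 1.44 (edgeR adjusted p 0.86), and with library as a term 1.79 (edgeR adjusted p 0.84). The only mixed-library control tumours with enough CD8 T cells were those of line 15, day 10 (27 cells), and line 18, day 16 (23 cells). Both were in 1 library, whose KO tumours were all of line 19, so the value with library as a term rests on that contrast. Tumours of 1 line and day differed widely: those of line 24, day 16, were at 4.94, 194 and 112 CPM.

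A few cells held much of this Ccr7. In CD8 T cells 42 cells with at least 5 Ccr7 UMIs carried 47.9% of all Ccr7 UMIs. Of these 42 cells, 38.1% had a Tcf7 UMI, 14.3% a Fscn1 UMI and 9.52% a Ccl22 UMI. The 4 markers of mature dendritic cells summed to 0 through a median of 22.6 to 46.9 CPM in control and 0 through 36.7 to 122 CPM in KO tumours, all 4 being detected. Without cells with Fscn1 or Ccl22, Ccr7 was at 148 CPM in control and 221 CPM in KO CD8 T cells over all tumours, against 136 and 222 CPM with them. Macrophages went the same way, with Ccr7 medians of 3.58 CPM in 18 control and 10.7 CPM in 17 KO tumours. Natural killer cells had 4.49 and 20.1 CPM, on 1 and 10 UMIs. Unplaced T cells went the other way (medians of 122 and 93.7 CPM), as did conventional CD4 T cells. The part of RNA from other cells in the CD8 values was not tested.

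Klf2 in CD8 T cells ran from 111 through a median of 294 to 469 CPM in control and from 69.3 through 205 to 490 CPM in KO tumours. The fitted difference was -0.50 on the log2 scale (SE 0.28, edgeR adjusted p 0.36). It turned to 0.16 in the mixed libraries alone and to 0.36 with library as a term, which rest on the same few control tumours as for Ccr7. The other 5 genes were below the filter. Il7r had medians of 45.3 CPM in control and 63.9 CPM in KO tumours, and Lef1 43.4 and 27.3 CPM. S1pr1 was at 0 in 3 of 7 control tumours and above 0 in all 17 KO tumours, with medians of 11.7 and 21.7 CPM. Its means were 29.6 and 28.2 CPM. These rest on 6 UMIs in 154 control cells and 68 UMIs in 1053 KO cells, too few to read the zeros as a difference. Slamf6 had medians of 31.3 and 13.7 CPM and Id3 of 28.9 and 20.3 CPM, and for each of the 5 the ranges overlapped.

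**Figure D5:**
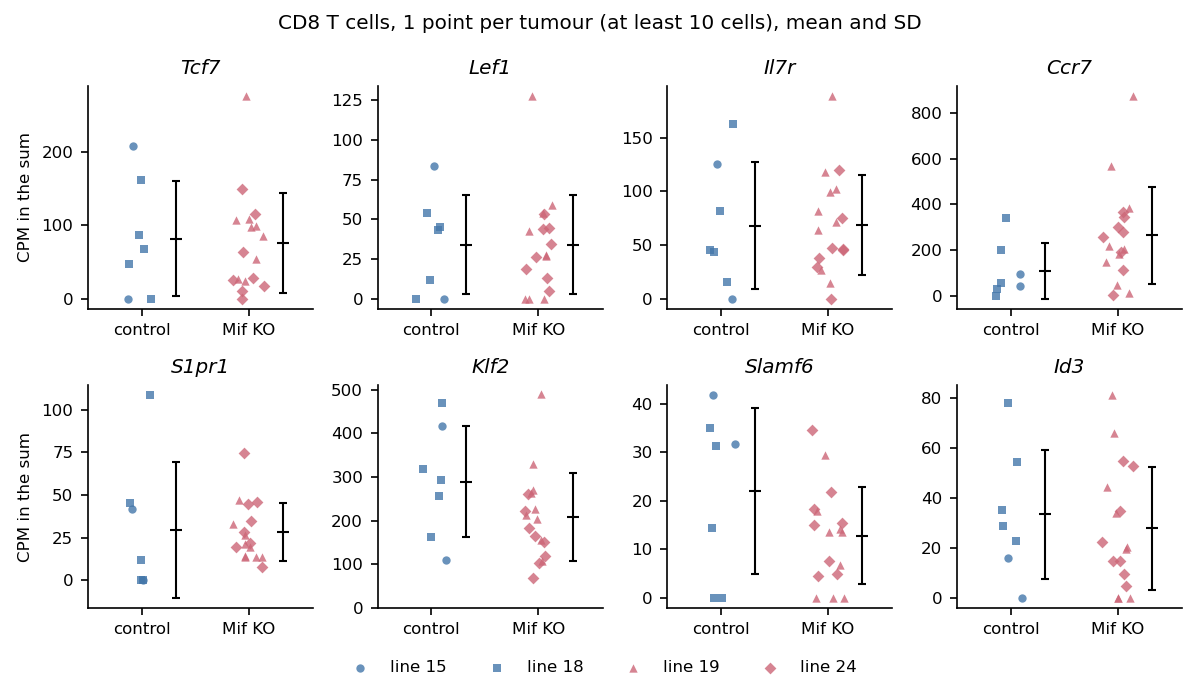
Level of each gene in CD8 T cells (y axis, CPM of the summed cells) in control (blue) and Mif KO tumours (red), with a point per tumour of at least 10 CD8 T cells, marked by line. The black bars give the mean and SD over 7 control and 17 KO tumours. The 2 groups overlap for every gene, and Ccr7 has medians of 54.2 and 219 CPM in the tumours shown. Control tumours with fewer cells, not shown, held 33 Ccr7 UMIs in 57 CD8 T cells, against 39 in the 154 cells of those shown.

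Genes of related pathways gave few calls in the same comparison of CD8 T cells. None of the 5 tested of 16 memory companions passed (median 0.44, against 0.01 over all genes, of which 3.29% were called), and none of the 7 tested of 17 effector genes (median -0.30). Of 14 genes of chronic stimulation 6 were tested, and Nr4a2 (1.32) and Nr4a3 (2.67), both induced by receptor signalling, were higher in KO tumours. In interleukin 7 receptor signalling, Il2rb was higher (1.31) and Il2rg lower (-0.76) of 6 tested. Rgs2 was higher (2.12) among 6 tested genes of tissue retention. These 49 calls over all genes fell to 1 without control line 18 and to 1 without KO line 24.

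The direction for Ccr7 was opposite in conventional CD4 T cells and also did not pass. Only 3 control tumours entered, with Ccr7 at 163, 266 and 564 CPM, against 9.47 through a median of 54.4 to 605 CPM in 15 KO tumours. The control tumours lay above most KO tumours, and the highest value was a KO tumour. Control tumours below the minimum held 16 Ccr7 UMIs in 58 cells, against 47 in the 43 cells of the 3 tumours, and with them the control level was 207 CPM instead of 333 CPM. Of all Ccr7 UMIs in conventional CD4 T cells, 14 of 684 cells carried 59.3%. KO against control gave -1.73 on the log2 scale (SE 0.63, edgeR adjusted p 0.31), with a range of -2.01 to -1.12 over 14 alternatives. Klf2 was at 53.2, 89.2 and 145 CPM in control and 27.2 through 181 to 426 CPM in KO tumours (0.96, SE 0.55, edgeR adjusted p 0.54). Control tumours below the minimum held 29 Klf2 UMIs in 58 cells, against 15 in the 43 cells used. Over all conventional CD4 T cells, without thinning, 17.8% had a Klf2 UMI in control and 16.5% in KO tumours. edgeR called 0 genes (0.0%) of 1523, with 166 at an unadjusted p under 0.05, and DESeq2 called 12.

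Tcf7, S1pr1 and Slamf6 had no UMI in the 43 conventional CD4 T cells of the 3 control tumours. The control tumours with fewer than 10 such cells, left out of the fit, held 7, 4 and 4 UMIs of them in 58 cells. In KO tumours Tcf7 ran from 0 through a median of 16.7 to 60.5 CPM and Slamf6 from 0 through 34.3 to 82.0 CPM, and 4 and 3 of the 15 were also at 0. The difference between the KO effects in CD8 and conventional CD4 T cells, added after seeing the data, was tested in the 17 tumours with both classes, of which 2 were control. For Ccr7 it was 6.14 on the log2 scale (SE 1.89, edgeR adjusted p 0.41). The 2 control tumours held 1 and 0 Ccr7 UMIs in CD8 and 31 and 11 in conventional CD4 T cells, so this size depends on the prior count of the fit and is no bound. In all, 0 of 3045 genes (0.0%) passed, with 230 at an unadjusted p under 0.05.

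Regulatory T cells were too few for the planned comparison with at least 10 cells per tumour. At that minimum it could be fitted with the other hashtag call (12 sums, 0 genes called by edgeR, 113 at an unadjusted p under 0.05), and without it as 1 sum per line (4 genes called), which gave Klf2 at -0.29 and -1.65 (edgeR adjusted p 0.93 and 0.75). With at least 5 cells, 7 control and 11 KO tumours entered, and only Klf2 could be tested, at -0.58 (SE 0.56, edgeR adjusted p 0.69), against 0.33% of 909 genes called. It ran from 0 through a median of 362 to 400 CPM in control and from 0 through 124 to 588 CPM in KO tumours. Il7r ran from 0 through 200 to 343 CPM in control and from 0 through 82.9 to 292 CPM in KO tumours, and the groups overlapped. Tcf7 had no UMI in all 7 control tumours and 2 UMIs in the 11 KO tumours together. Between regulatory and conventional CD4 T cells of 4 tumours neither Klf2 (-0.32, edgeR adjusted p 0.91) nor Ccr7 (-0.30, edgeR adjusted p 0.94) passed, against 0.464% called.

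Over all gated T cells, a set added after seeing the data, 33 tumours entered and 9.8% of 3642 genes were called, but 0 of the 4 genes tested. The mix of classes differed: regulatory T cells, highest for Il7r, were 10.8% of 790 gated T cells in control and 3.23% of 3590 in KO tumours, and its part in these values was not tested. Klf2 was at -0.50 (SE 0.17, edgeR adjusted p 0.058), Il7r at -0.49 (SE 0.21, edgeR adjusted p 0.13), Tcf7 at -0.46 (SE 0.28, edgeR adjusted p 0.33) and Ccr7 at 0.04 (SE 0.27, edgeR adjusted p 0.97). Klf2 passed with cells thinned to 1000 UMIs (-0.85, edgeR adjusted p 0.0018) and without the exclusion of cells with myeloid UMIs (edgeR adjusted p 0.048). In the mixed libraries alone, where 5 genes in all were called, it was -0.38 (edgeR adjusted p 0.70). Of 13 genes of homing and egress 8 were tested, with Itgal higher (0.46) and, among those lower in KO tumours, Ccr2 (-1.02), Cxcr3 (-0.77), Gpr183 (-0.65) and Itgb7 (-0.63), and a median of -0.64 against -0.02 over all genes.

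In CD8, conventional CD4 and all gated T cells, no change of the 8 genes between days passed a test. Tcf7 in CD8 T cells had medians of 74.6 CPM on day 6 (6 tumours), 63.6 CPM on day 10 (8 tumours) and 57.4 CPM on day 16 (10 tumours), with ranges that overlapped (0 to 163, 0 to 149 and 9.88 to 277 CPM). Ccr7 had medians of 212, 204 and 153 CPM and Klf2 of 194, 239 and 306 CPM on the same days. The mix of groups differed by day, and its part in these medians was not tested. The only control tumour of day 6 had 163 CPM of Klf2. On day 16 Klf2 was at 418, 294, 469 and 318 CPM in control tumours and ran from 104 to 490 CPM in KO tumours. With line as a term, day 16 against day 6 gave log2 fold changes of -0.03 for Tcf7 (SE 0.61), 0.15 for Ccr7 (SE 0.62), 0.11 for Il7r (SE 0.54) and 0.29 for Klf2 (SE 0.31). edgeR called 0 of 1948 genes (0.0%) in CD8 T cells, with 187 at an unadjusted p under 0.05, and DESeq2 called 2.

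By day, conventional CD4 T cells gave no call: 0 of 4 genes tested passed, against 0.186% of 2684 genes. Lef1 had no UMI in the 56 cells of day 6, all of KO lines, and ran from 0 through a median of 20.3 to 181 CPM on day 16 (4.31, SE 2.06, edgeR adjusted p 0.53). With no UMI on day 6 this size depends on the prior count of the fit, and DESeq2 gave 2.94. Klf2 was highest on day 10, with medians of 82.0, 210 and 147 CPM on days 6, 10 and 16, and day 10 against day 6 gave 1.63 (SE 0.56, edgeR adjusted p 0.14; 1.53% of genes called). In regulatory T cells Klf2 was at -0.98 on day 16 against day 6 (SE 1.05, edgeR adjusted p 0.99), but day 6 was a single tumour with 8 cells, so this value and the 0.0% of genes called (43 at an unadjusted p under 0.05) say nothing about a change. Over all gated T cells 0 of 5 passed, against 1.48% of genes, and Klf2 was at 0.44 (SE 0.21, edgeR adjusted p 0.36).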

How the data were processed

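For 6 libraries of the 10x 5′ kit, unnormalized UMI counts of genes and of 10 hashtags were deposited by the authors. Cell Ranger 6.0.0 and mm10 are named in the submitters' processing notes. The 8 genes and all gene lists were chosen with earlier results of these data known. Cells needed 300 genes or more and a mitochondrial share of 15% or less, HTODemux (Seurat 5.3.0) assigned single hashtags and left out hashtag doublets, and 2 hashtags with under 0.1% of counts were left out. T cells had at least 2 Cd3 UMIs and at most 3 myeloid UMIs. Counts were summed per tumour and class with at least 10 cells and tested in edgeR 4.0.16 (filterByExpr, TMM, quasi-likelihood, Benjamini-Hochberg, threshold 0.05), which was tested on simulated data. The simulated counts held no effect of line, library or tumour, so they cannot show how the p-values behave under such effects. Standard errors come from the fold change and F. Values in CPM are unscaled. Alternatives were DESeq2 1.42.0, other scaling, filters, gates and hashtag calls, lines left out, 1 sum per line, the mixed libraries alone, a library term and thinning to 1000 UMIs. The rule for naming took the 8 genes, of each list the 3 genes with the smallest p each way, and the 10 largest called changes each way by Tcf7 status. Of 9 lists, those of partners of Tcf7 and Lef1, of Id and E proteins and of the SLAM family are not reported. The other lists are given for some comparisons only, and a list without a call had no gene named. Further called list genes, and the rest of the genes called by Tcf7 status in 3 tumours, were named after their values were seen. Intervals cover counting error only.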

Additional observations from a re-analysis of the deposited data

Results flagged for a closer look

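In CD8 T cells of control tumours, S1pr1 was at 108 CPM in tumour B of line 18, day 6, far above the other 6 control tumours (0 to 45.3 CPM). The value rests on 2 UMIs in 14 cells. In regulatory T cells of control tumours, Slamf6 was at 191 CPM in tumour C of line 18, day 10, which also rests on 2 UMIs, in 5 cells. In all 15 groups of samples were tested for a sample far from the others, and chance flags about 1 in 20. Day 0 entered no comparison. Gated T cells were found there only in line 24, with 12 of 1681 cells for letter A and 3 of 1985 cells for letter B. The other 5 day 0 hashtags had 0.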

How the results depend on the processing

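Beyond the main values, 628 alternative log2 fold changes of the 8 genes were computed, of which 546 kept their direction and side of the threshold, 25 lost and 12 gained a call and 45 changed sign. The cause of each change was not tested. No paired analysis was possible by replicate number because the labels share these only between the gene and hashtag libraries of 1 line. Mixed libraries held control and KO tumours of the same days, which the fits with library as a term and in the mixed libraries alone use, and comparisons of classes had tumour as a term. For CD8 T cells at 10 cells per sum, the mixed libraries kept only the control tumours of line 15, day 10, and line 18, day 16. Both were in 1 library. KO and day fits of regulatory T cells at 10 cells per sum (except with the other hashtag call or, for KO, as 1 sum per line), conventional CD4 KO sums at 20 cells, in the mixed libraries alone or with a library term, day fits in CD8 and conventional CD4 T cells with a library term, regulatory against conventional CD4 T cells at 20 cells, and Tcf7 status at 20 cells, with a stricter gate, without line 24, in the mixed libraries alone or thinned could not be fitted. In conventional CD4 T cells, DESeq2 gave no adjusted p for the 4 genes by day. Few UMIs per cell limit the values of S1pr1, Slamf6 and Id3.

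Genes called for KO against control in CD8 T cells went from 49 to 78 (DESeq2), 107 (no filter), 3 (at least 5 cells) and 0 (mixed libraries alone, 1 sum per line or library term), and to between 1 and 65 with a line left out. In conventional CD4 T cells 0 went to 12 (DESeq2), 35 (no filter), 4 (other hashtag call), 11 (thinned) and 6 (at least 5 cells), with 0 to 16 when a line was left out. In regulatory T cells the 3 calls at 5 cells per sum compare with 0 (other hashtag call) and 4 (1 sum per line), where the cell minimum differed too. Over all gated T cells 357 went to 641 (no filter), 228 (stricter gate), 5 (mixed libraries alone), 187 (thinned), 0 (1 sum per line) and 1 (library term), with 53 to 344 when a line was left out.

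For day 16 against day 6, the 0 calls in CD8 T cells went to 2 (DESeq2 or at least 5 cells), 15 (no filter) and 7 (mixed libraries alone), with 0 to 7 when a line was left out. In conventional CD4 T cells 5 went to 24 (DESeq2), 8 (RLE), 17 (no filter), 9 (stricter cell filter), 2 (stricter gate, thinned or without Il2ra or Ikzf2 cells), 1 (at least 20 cells) and 0 (mixed libraries alone), with 0 to 12 when a line was left out. Over all gated T cells 62 went to 141 (no filter), 27 (stricter gate or other hashtag call) and 5 (mixed libraries alone), with 18 to 40 when a line was left out.

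Between CD8 and conventional CD4 T cells 348 went to 169 (mixed libraries alone), with 202 to 374 when a line was left out. Between regulatory and conventional CD4 T cells 5 went to 16 (DESeq2 or thinned), 79 (no filter), 18 (stricter gate), 3 (no myeloid exclusion), 49 (other hashtag call), 19 (mixed libraries alone) and 62 (at least 5 cells), with 2 to 34 when a line was left out. By Tcf7 status 18 went to 3 (DESeq2), 30 (no filter), 8 (no myeloid exclusion), 4 (other hashtag call) and 7 (at least 5 cells), with 0 to 18 when a line was left out. Against macrophages, CD8 calls went from 3475 to 1970 (mixed libraries alone) and 1727 (thinned), with 2119 to 3301 when a line was left out, and conventional CD4 calls from 2330 to 3812 (no filter), 1122 (mixed libraries alone) and 1337 (thinned).

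Sign changes for KO against control were Klf2 in CD8 T cells at 0.16 (mixed libraries alone) and 0.36 (library term), Tcf7 in CD8 T cells at -0.43 (stricter gate or at least 5 cells) and -0.63 to 0.93 over lines left out, Klf2 in conventional CD4 T cells at -0.37 (other hashtag call), and Ccr7 over all gated T cells at -0.015 (1 sum per line), -0.14 (at least 5 cells) and -0.30 to 0.57 over lines left out. Between classes they were Klf2 at 0.013 (at least 5 cells) and -0.99 to 0.15 over lines left out and Ccr7 at 0.018 (DESeq2) in regulatory against conventional CD4 T cells, Klf2 by Tcf7 status at -0.15 (other hashtag call), and Id3 in CD8 T cells against macrophages, from -1.002 to 0.012 over lines left out.

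For day 16 against day 6 in CD8 T cells, Klf2 was at -0.25 (at least 20 cells), -0.23 (stricter gate), -0.12 (stricter cell filter) and -0.056 (at least 5 cells). Ccr7 was at -0.38, -0.28, -0.32 and -0.084 under the same settings and at -0.70 when thinned, with -0.90 to 1.24 over lines left out. Il7r was at -0.14 (at least 20 cells), -0.29 (stricter gate) and -0.10 (no myeloid exclusion), and Tcf7 at 0.068 (DESeq2) and -0.91 to 0.75 over lines left out. In conventional CD4 T cells Klf2 was at -0.53 (mixed libraries alone) and -0.11 (without Il2ra or Ikzf2 cells), and Ccr7 at -0.76 (at least 20 cells), -0.10 (other hashtag call) and -0.93 (without Il2ra or Ikzf2 cells). Klf2 in regulatory T cells was at 0.86 with the other hashtag call at 10 cells per sum, so both choices differed from the value at 5 cells. Over all gated T cells Ccr7 was at -0.20 and Il7r at -0.052 (other hashtag call), and at -0.061 and -0.12 in the mixed libraries alone. Over lines left out Ccr7 ran from -0.045 to 0.41, Il7r from -0.28 to 0.33 and Tcf7 from -0.54 to 0.13.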

Other observations

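The sheet names 3 tumours as WT, which the labels put in no group. In CD8 T cells of the WT tumour of day 10 (16 cells), Tcf7 was at 94.8 CPM, Ccr7 at 19.0 CPM and Klf2 at 152 CPM. In that of day 16 (130 cells), Tcf7 was at 18.2 CPM, Ccr7 at 42.4 CPM, Il7r at 63.6 CPM and Klf2 at 233 CPM.

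Unplaced T cells, which had at least 2 Cd3 UMIs and either no UMI of Cd4, Cd8a, Cd8b1 or Foxp3 or a conflicting combination of them, lay between CD8 and conventional CD4 T cells for Tcf7 (55.9 CPM) and Lef1 (28.8 CPM), were below both for Ccr7 (105 CPM) and above both for Il7r (77.1 CPM), S1pr1 (25.7 CPM) and Id3 (38.1 CPM). Their natural killer markers summed to 50.02 CPM, against 29.4 CPM in CD8 T cells and 924 CPM in natural killer cells.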
